A study of Mus musculus with 18 samples.

Results

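The comparison set estrogen receptor positive (ER+) luminal cells of the pubertal mouse mammary gland against the estrogen receptor negative (ER-) luminal cells of the same stage, in 2 RNA sequencing libraries of each. Genes entered it where at least 2 of these 4 libraries held a value of 10 or more, which left 18345 of the 46233 genes of the series. Of these, 15224 passed in all 4 libraries, 309 passed through the ER+ libraries alone and 539 through the ER- libraries alone. At the edge of the filter, 665 genes had a second-highest value of 10 or 11 and were kept, and 960 had one of 8 or 9 and were left out. The series holds 18 libraries in 9 groups of 2, namely the 2 luminal cell types and basal cells, each at puberty, in adults and in mid pregnancy, all sorted by flow cytometry. Every group carried the genotype ERrtTA/TetOCre/rosaYFP. In this set of transgenes a tetracycline-controlled transactivator can switch on Cre recombinase and with it a yellow fluorescent reporter. No source used here gives the age in weeks, any doxycycline treatment, the sorting gates or whether replicates were separate animals. The p-values and standard errors draw on the spread within all 9 groups of the 18 libraries, not within these 4 libraries alone. That spread could therefore be technical.

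The ducts of the mammary gland are lined by luminal cells, and at puberty estrogen from the ovary drives the growth of these ducts into the fat pad. Estrogen acts through the receptor encoded by Esr1 in a class of luminal cells, called hormone-sensing, which then signal to their neighbours by secreted ligands such as amphiregulin. The other class lacks the receptor, includes the precursors of the milk-producing alveolar cells and is marked by the transcription factor Elf5 and the receptor tyrosine kinase Kit.

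Values are scaled reads, that is, read counts per gene brought to a common library total and rounded up. The steps between low values put the depth at 10407808 and 7674810 reads in the ER+ libraries and at 9671046 and 11292119 in the ER- libraries. Spearman correlations across genes were 0.968 between the ER+ replicates, 0.97 between the ER- replicates and 0.909 to 0.946 between the cell types. The label genes stood where the labels put them in all 4 libraries. The pan-luminal keratins Krt8 and Krt18 were high in all 4, with 35830 and 39122 scaled reads of Krt8 in ER+ cells against 30919 and 37126 in ER- cells. The basal keratin gene Krt5 had 225 and 42 scaled reads in ER+ cells and 320 and 83 in ER- cells, against 18170 and 14740 in the basal cells of the same stage.

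Transcripts of other cell types were present, and the endothelial, adipocyte and fibroblast sums followed the replicate number more than the cell type. Schwann cell markers differed more by cell type, with sums of 2998 and 2122 in ER+ cells and 8824 and 6858 in ER- cells. Of these 6 markers, 2 were lower in ER+ cells, Sox10 and Cdh19. The 11 endothelial markers summed to 14026 and 1834 scaled reads in ER+ replicates 1 and 2, and to 12377 and 2343 in ER- replicates 1 and 2. Adipocyte markers summed to 14508 and 2438 in ER+ cells and to 21000 and 3817 in ER- cells. Fibroblast markers ran the other way, with 19713 and 64296 in ER+ cells and 16445 and 72402 in ER- cells. The 18 basal markers summed to 18279 and 5061 in ER+ cells and 21002 and 9349 in ER- cells, at most 5.36% of the sum in the basal library of the same number. Of the endothelial, fibroblast, pericyte, adipocyte and erythroid markers, 0 were called between ER+ and ER- cells by limma, edgeR or DESeq2, and 1 fibroblast marker had an unadjusted p under 0.05 in limma. With 1 library left out, at most 1 gene of each of these lists was called. Among the 16 immune markers tested, Itgax, with 0 and 3 scaled reads in ER+ cells against 41 and 13 in ER- cells, was called lower, but it passed the filter through the ER- libraries alone and so had to differ. Without ER+ replicate 1, 3 immune markers were lower. Of the 18 basal markers, 2 were lower in ER+ cells, Lgr5 and the oxytocin receptor gene Oxtr, and 6 were lower without ER+ replicate 1. Oxtr had 871 and 171 in ER+ cells against 2177 and 1619 in ER- cells, with 49019 and 34268 in basal cells. Its adjusted p of 0.0159 became 0.101 without ER- replicate 1 and 0.0623 without ER- replicate 2. The part of these transcripts in the results was not tested.

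**Figure D1:**
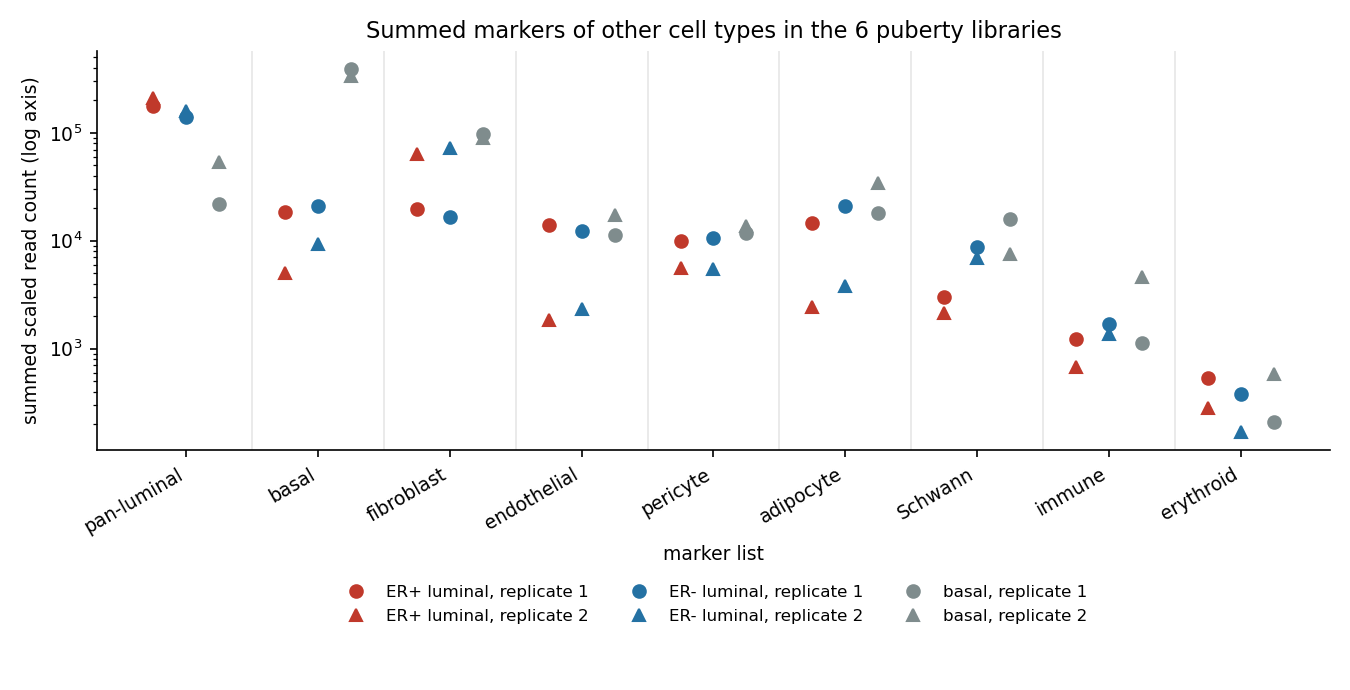
Summed scaled reads of the marker genes of 9 cell classes (log axis) in the puberty libraries, ER+ luminal in red, ER- luminal in blue and basal in grey, circles for replicate 1 and triangles for replicate 2. Endothelial and adipocyte sums are higher in replicate 1 of both luminal groups, fibroblast sums in replicate 2.

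ER+ and ER- luminal cells differed in 2915 genes, which is 15.9% of the genes tested. In ER+ cells 1332 genes were higher (7.26%) and 1583 were lower (8.63%), at a Benjamini-Hochberg adjusted p under 0.05 in limma. These shares are the background for the counts of each gene list below. The differences were large, since 348 of the higher and 655 of the lower genes differed at least 4-fold. The median log2 fold change, always ER+ over ER- and of value + 1, was 1.23 for the higher genes, -1.71 for the lower genes and -0.07 for all genes tested. The libraries of the cell types did not overlap for any called gene, and they did not overlap for 60.8% of all tested genes either (29.3% with ER+ higher, 31.6% with ER+ lower). The number of calls rested on having both replicates. It was 1317 without ER+ replicate 2, 1860 without ER- replicate 1, 1451 without ER- replicate 2 and 2855 without ER+ replicate 1. Without ER+ replicate 1, 34.3% of the calls were higher in ER+ cells, against 45.7% with all libraries. Less RNA of a gene per cell and fewer cells with that RNA cannot be told apart in such bulk samples.

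**Figure D2:**
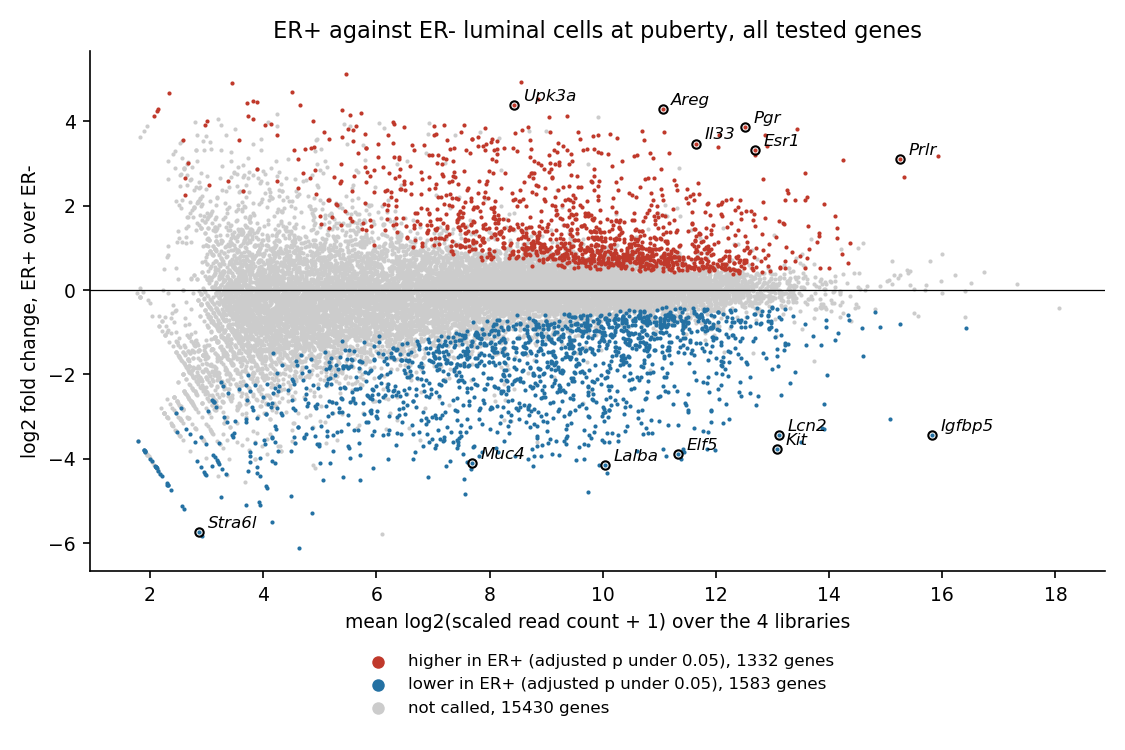
Log2 fold change (ER+ over ER-) against the mean level of each of 18345 tested genes. Red points are the 1332 genes higher and blue points the 1583 genes lower in ER+ cells at an adjusted p under 0.05, and grey points are not called.

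The genes of the ovarian hormone receptors stood apart by an order of magnitude. Esr1 (chromosome 10, 4611593 to 5005614, GRCm38) had 18278 and 24264 scaled reads in the ER+ libraries against 2152 and 2032 in the ER- libraries, a log2 fold change of 3.33 ± 0.60 (standard error) at an adjusted p of 0.00272. Pgr, the progesterone receptor gene and itself a target of estrogen (chromosome 9, 8899833 to 8968611), had 18388 and 27548 in ER+ cells and 1718 and 1367 in ER- cells, a log2 fold change of 3.88 ± 0.65 (adjusted p = 0.00188). Both ER- libraries held Esr1 and Pgr reads, at levels far below the lowest ER+ library. Prlr, the prolactin receptor gene, had 104892 and 125402 in ER+ cells and 14434 and 12151 in ER- cells, with a log2 fold change of 3.11 ± 0.71. Its adjusted p was 0.0116 with all libraries, 0.0961 without ER+ replicate 2, 0.0503 without ER- replicate 1 and 0.0857 without ER- replicate 2.

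Nr3c1 and Thrb were lower in ER+ cells. Nr3c1, the glucocorticoid receptor gene, had 1727 and 1164 in ER+ cells and 3677 and 3866 in ER- cells (-1.41 ± 0.26, adjusted p = 0.00176). Thrb, a thyroid hormone receptor gene, had 117 and 57 in ER+ cells and 406 and 332 in ER- cells (-2.15 ± 0.35). Among the 11 tested receptor genes 4 rose and 3 fell, with a median of -0.10. Without ER+ replicate 2 or without ER- replicate 1 the counts were 2 and 2, and without ER- replicate 2 they were 3 and 2. Esr2, the gene of the other estrogen receptor, was below the filter, at 2 and 0 in ER+ cells and 9 and 11 in ER- cells.

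**Figure D3:**
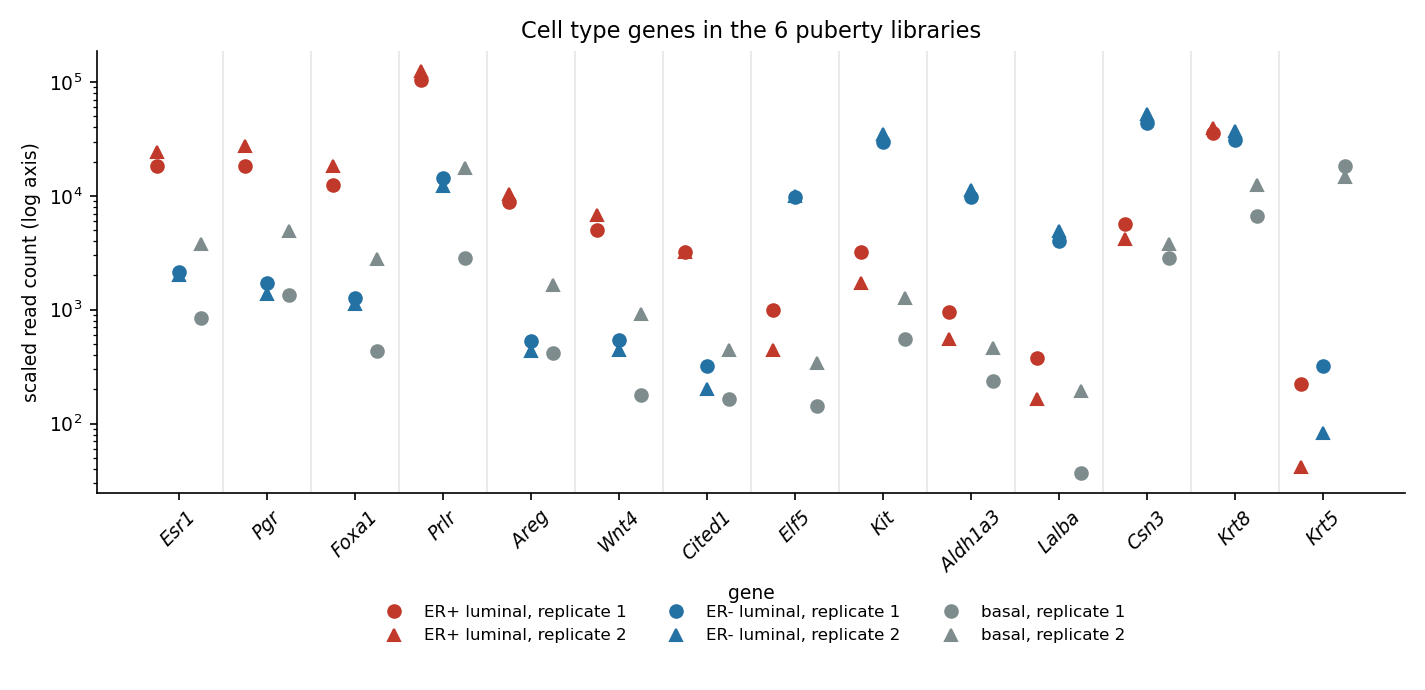
Scaled reads of 14 cell type genes (log axis) in each puberty library, ER+ luminal in red, ER- luminal in blue and basal in grey, circles for replicate 1 and triangles for replicate 2. Esr1 lies at 18278 and 24264 in ER+ cells and at 2152 and 2032 in ER- cells, Kit at 3202 and 1720 in ER+ cells and at 29598 and 35158 in ER- cells.

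Transcription factor genes of hormone-sensing cells were higher as a group: 8 of 12 tested rose, 0 fell, and the median log2 fold change was 2.06, against -0.07 for all genes. Foxa1, whose product opens chromatin for the estrogen receptor (chromosome 12, 57540628 to 57546916), had 12566 and 18132 scaled reads in ER+ cells against 1259 and 1114 in ER- cells (3.67 ± 0.69, adjusted p = 0.00363). Cited1, a transcriptional coregulator gene, had 3200 and 3215 in ER+ cells against 322 and 202 in ER- cells (3.65 ± 0.44, adjusted p = 0.00013). Tbx3 (5228 and 6828 in ER+, 1287 and 860 in ER-), a T-box gene that mammary placodes need, was higher by 2.50 ± 0.36, and Myb (2257 and 2734 in ER+, 324 and 351 in ER-) by 2.88 ± 0.56. Tox3, a gene linked to breast cancer risk in humans, had 601 and 782 in ER+ cells and 128 and 125 in ER- cells. Runx1 differed less, with 27902 and 32560 in ER+ cells and 10285 and 11477 in ER- cells (1.47 ± 0.28). Gata3, a factor that luminal cells of both classes need, had 5891 and 8064 in ER+ cells and 3732 and 4349 in ER- cells, a log2 fold change of 0.77 ± 0.22. Its adjusted p of 0.0288 became 0.299 without ER+ replicate 2, 0.17 without ER- replicate 1 and 0.0757 without ER- replicate 2. Over the fits with 1 library left out, 6 to 8 of the 12 factors were called.

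The ligands through which hormone-sensing cells reach their neighbours showed 3 called genes of 6 tested, with 0 lower. Areg, which encodes amphiregulin, the ligand of the EGF receptor that estrogen needs for duct growth (chromosome 5, 91139599 to 91148432), had 8765 and 10309 scaled reads in ER+ cells against 535 and 434 in ER- cells (4.30 ± 0.75, adjusted p = 0.00235). Wnt4, a mediator of progesterone, had 5013 and 6823 in ER+ cells against 544 and 444 in ER- cells (3.57 ± 0.62). Wnt5a, a noncanonical WNT ligand gene, had 5611 and 6743 in ER+ cells against 408 and 486 in ER- cells (3.78 ± 0.37, adjusted p = 2.99e-05). For each of the 3 genes both ER+ libraries lay above both ER- libraries, and each was called with any 1 of the 4 libraries left out. Tnfsf11, which encodes the progesterone-induced ligand RANKL, was under the filter, with 0 and 3 in ER+ cells and 7 and 0 in ER- cells, so no difference was detectable at this depth.

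The start regions of Areg and Foxa1 are shown because both genes were called in every leave-one-out fit and each holds 1 match to a factor's motif. In Areg the capitals mark the cyclic AMP response element TGACGTCA, 61 bases before the start. In Foxa1 they mark the forkhead motif TGTTTAC, read on the opposite strand, 141 bases before the RefSeq start. The whole Foxa1 window lies within the span of that gene given above, which is from GENCODE. Each window runs 5′ to 3′ along the gene from 250 bases before to 50 after the start (RefSeq, GRCm38.p6), chr5:91139349-91139648 on the plus strand and chr12:57546062-57546361 on the minus strand.
Areg: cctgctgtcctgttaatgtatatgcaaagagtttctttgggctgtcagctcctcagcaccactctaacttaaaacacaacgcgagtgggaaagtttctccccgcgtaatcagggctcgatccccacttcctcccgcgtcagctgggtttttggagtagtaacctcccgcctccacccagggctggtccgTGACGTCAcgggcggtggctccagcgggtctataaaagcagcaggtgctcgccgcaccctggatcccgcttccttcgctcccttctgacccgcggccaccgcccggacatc
Foxa1: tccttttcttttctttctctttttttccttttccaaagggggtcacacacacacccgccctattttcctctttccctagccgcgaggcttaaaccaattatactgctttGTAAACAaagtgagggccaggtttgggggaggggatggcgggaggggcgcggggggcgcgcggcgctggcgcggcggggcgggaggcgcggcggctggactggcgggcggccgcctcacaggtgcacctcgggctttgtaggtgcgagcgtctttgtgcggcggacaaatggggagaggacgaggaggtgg
Promoters were matched for 11565 of the tested genes, and both strands were searched. The forkhead motif was in 2.56% of the promoters of genes higher in ER+ cells, in 3.19% of those of genes lower there and in 2.46% of all. The cyclic AMP element was in 1.78% of promoters of the higher genes, 3.66% of those of the lower genes and 3.09% of all. The STAT5 motif TTCNNNGAA was in 6.41%, 6.67% and 6.89% of the same sets. The full estrogen response element, GGTCA and TGACC with 3 bases between them, was in 0 of the 11565 windows, the Pgr window among them. The windows of Lalba, Elf5 and Kit, searched for the STAT5 motif, and of Upk3a, searched for the forkhead motif, also held 0 matches. Areg and Foxa1 were thus picked for their match from the genes searched singly. A match describes letters only.

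Of 14 known estrogen targets tested, 6 were higher in ER+ cells and 1 was lower, with a median of 0.57. Pgr, Areg and Cited1, described above, are 3 of the 6. Greb1, an estrogen-induced coactivator gene of breast cancer cells, had 151 and 213 in ER+ cells against 13 and 11 in ER- cells (3.80 ± 0.86, adjusted p = 0.00686). It became 0.0696 without ER+ replicate 2 and 0.0545 without ER- replicate 2. Bcl2, the cell survival gene, was the exception in direction, with 546 and 347 in ER+ cells against 2386 and 2844 in ER- cells (-2.58 ± 0.23, adjusted p = 1.02e-05). Ccnd1, Myc and Xbp1 were not called, with Ccnd1 at 3625 and 3913 in ER+ cells and 4609 and 3214 in ER- cells. The count of rises was 3 without ER+ replicate 2, 4 without ER- replicate 1 and 3 without ER- replicate 2, and DESeq2 called 6 higher and 2 lower.

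ER- cells held more of the factors that act in alveolar and progenitor cells. Of 13 tested, 8 were lower in ER+ cells and 2 higher, with a median of -1.67. Elf5 (chromosome 2, 103411688 to 103450989), the factor that specifies alveolar cells, had 1005 and 445 scaled reads in ER+ cells against 9699 and 10048 in ER- cells (-3.88 ± 0.65, adjusted p = 0.00183). Sox10, a factor of neural crest and of mammary progenitors, had 439 and 288 in ER+ cells against 4199 and 4377 in ER- cells (-3.59 ± 0.36). The other Schwann cell markers moved with it in part, since Cdh19 had 157 and 47 in ER+ cells against 855 and 420 in ER- cells (adjusted p = 0.0174, or 0.216 without ER+ replicate 2 and 0.138 without ER- replicate 1), while the myelin gene Mbp had 1933 and 1669 in ER+ cells against 2250 and 1711 in ER- cells and was not called. All 6 Schwann markers summed to 2998 and 2122 in ER+ cells and to 8824 and 6858 in ER- cells, and the part of Schwann cell RNA was not tested. Foxc1 (515 and 262 in ER+, 2355 and 2165 in ER-), Bcl11a (162 and 70 in ER+, 712 and 741 in ER-) and Tfap2c (361 and 264 in ER+, 1578 and 1339 in ER-) were lower, with log2 fold changes of -2.62 ± 0.37, -2.76 ± 0.41 and -2.23 ± 0.24. Cebpb, a factor needed for alveolar development, was lower (-1.67 ± 0.28), as was Nfib (-0.90 ± 0.17).

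In the same list, Sox9 and Stat5a were higher in ER+ cells. Sox9, a progenitor factor gene, had 21601 and 20594 in ER+ cells against 9105 and 9941 in ER- cells (1.15 ± 0.24, adjusted p = 0.00395). Stat5a, which encodes the factor downstream of the prolactin receptor, had 4409 and 5760 in ER+ cells against 2379 and 2188 in ER- cells (1.14 ± 0.26). Its adjusted p of 0.00808 became 0.102 without ER+ replicate 2 and 0.0676 without ER- replicate 2. Its paralog Stat5b, at 1891 and 2305 in ER+ cells and 2371 and 2370 in ER- cells, was not called.

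Of 13 tested surface and enzyme genes used to recognise ER- progenitors, 10 were lower in ER+ cells and 0 higher, with a median of -3.20, and 9 were called in every leave-one-out fit. Kit (chromosome 5, 75574916 to 75656722) had 3202 and 1720 scaled reads in ER+ cells against 29598 and 35158 in ER- cells (-3.78 ± 0.49, adjusted p = 0.000328). Aldh1a3, a retinaldehyde dehydrogenase gene, had 965 and 557 in ER+ cells against 9803 and 11221 in ER- cells (-3.84 ± 0.41). Cd14, a lipopolysaccharide coreceptor gene, had 1504 and 1138 in ER+ cells against 10555 and 12352 in ER- cells (-3.12 ± 0.43). Slc28a3, a nucleoside transporter gene, had 355 and 161 in ER+ cells against 4414 and 5354 in ER- cells (-4.34 ± 0.62). Gabrp, a GABA receptor subunit gene, had 235 and 184 in ER+ cells against 1918 and 2158 in ER- cells. Lif, a cytokine gene, had 656 and 572 in ER+ cells against 4377 and 4489 in ER- cells. Itga2 and Anxa1, 2 of the 3 uncalled members, differed by less than the test could separate, with Anxa1 at 14969 and 26333 in ER+ cells and 12416 and 19982 in ER- cells. Its values followed the replicate number in both cell types.

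Milk genes were already unequal at puberty, before any milk is made. Of 15 tested, 9 were lower in ER+ cells and 0 higher, with a median of -3.27. Lalba, which encodes the lactose synthase cofactor alpha-lactalbumin (chromosome 15, 98480400 to 98482721), had 376 and 166 scaled reads in ER+ cells against 4047 and 4924 in ER- cells (-4.15 ± 0.75, adjusted p = 0.00287). Btn1a1, a milk fat globule membrane gene, had 929 and 482 in ER+ cells against 9107 and 12705 in ER- cells (-4.00 ± 0.66). Mfge8, another membrane protein gene of the globule, had 5226 and 4488 in ER+ cells against 42412 and 51723 in ER- cells (-3.27 ± 0.30, adjusted p = 1.99e-05). Xdh, needed for fat globule secretion, had 1253 and 1004 in ER+ cells against 5045 and 5761 in ER- cells. Trf, which encodes the iron carrier transferrin of milk, had 37 and 47 in ER+ cells against 363 and 692 in ER- cells (-3.56 ± 0.48). It is counted among the progenitor genes above, not among these 15. The casein gene Csn3 had 5705 and 4211 in ER+ cells against 43935 and 52225 in ER- cells (-3.29 ± 0.71), with an adjusted p of 0.00868 that became 0.0855 without ER+ replicate 2 and 0.0697 without ER- replicate 2. The main calcium-sensitive casein gene of mature milk, Csn2, was low and not called, with 77 and 3 in ER+ cells and 82 and 65 in ER- cells. Wap, the whey acidic protein gene, was under the filter, at 0 and 0 in ER+ cells and 7 and 15 in ER- cells. The count of lower milk genes was 5 without ER+ replicate 2 and 5 without ER- replicate 2.

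Of the innate defence genes, 8 of 19 tested were lower in ER+ cells and 0 higher, with a median of -1.48. Ltf, the gene of the iron-binding milk protein lactoferrin, had 13372 and 10619 in ER+ cells against 87023 and 113955 in ER- cells (-3.06 ± 0.47). Lcn2, a siderophore-binding lipocalin gene, had 3065 and 2375 in ER+ cells against 26514 and 32001 in ER- cells (-3.43 ± 0.30, adjusted p = 1.41e-05). The receptor gene Tlr2 had 138 and 132 in ER+ cells against 875 and 786 in ER- cells, and the neutrophil attractant gene Cxcl1 had 1933 and 1384 in ER+ cells against 8273 and 6622 in ER- cells. Immune cell markers summed to 1233 and 674 in ER+ cells and 1703 and 1356 in ER- cells, and Ptprc, the pan-leukocyte gene, had 359 and 42 in ER+ cells against 457 and 250 in ER- cells. Their part in the innate defence values was not tested.

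Of 21 Notch pathway genes tested, 3 were higher and 5 lower in ER+ cells, with a median of -1.04. The receptor gene Notch1 had 5505 and 4604 in ER+ cells against 15871 and 13901 in ER- cells (-1.56 ± 0.21), and Notch2 had 3374 and 3127 in ER+ cells against 6529 and 6848 in ER- cells (-1.04 ± 0.15). Hey1, a transcriptional target of Notch, had 515 and 334 in ER+ cells against 5111 and 6613 in ER- cells (-3.81 ± 0.33, adjusted p = 8.25e-06). Numb, an inhibitor of Notch, was also lower in ER+ cells, with 3511 and 3013 against 10359 and 10942 in ER- cells (-1.71 ± 0.29). Lfng, which encodes a sugar transferase that alters how Notch reads its ligands, was higher, with 380 and 404 in ER+ cells against 107 and 39 in ER- cells (2.58 ± 0.39). The coactivator genes Maml2 and Maml3 lay on opposite sides, with Maml2 at 965 and 813 in ER+ cells against 2941 and 3372 in ER- cells (-1.83 ± 0.20). Maml3 had 2495 and 2375 in ER+ cells against 1431 and 1369 in ER- cells (0.80 ± 0.22), and its adjusted p of 0.0201 lay between 0.0753 and 0.122 with any 1 library left out. The ligand gene Jag1, at 3366 and 2400 in ER+ cells against 1382 and 458 in ER- cells, had an adjusted p of 0.015, which was 0.078 without ER+ replicate 1 and 0.116 without ER- replicate 2. Notch4, Dll1 and Dll4, genes that endothelial cells also use, were not called and followed the replicate number, with Notch4 at 233 and 44 in ER+ cells and 275 and 64 in ER- cells. Without ER+ replicate 1, 1 gene was higher and 10 were lower. The higher count was 2 without ER+ replicate 2 and 2 without ER- replicate 1, and 1 without ER- replicate 2.

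The EGF family had calls in both directions. Of 17 tested, 4 were higher in ER+ cells, all ligand genes, and 7 were lower, with a median of 0.26. Beside Areg, the ligand gene Tgfa had 1083 and 1125 scaled reads in ER+ cells against 312 and 239 in ER- cells (2.01 ± 0.37), and Nrg4 had 1192 and 1050 in ER+ cells against 185 and 141 in ER- cells (2.78 ± 0.54). Egfr, which encodes the receptor of Areg and Tgfa, had 587 and 986 in ER+ cells against 3355 and 4978 in ER- cells (-2.42 ± 0.23, adjusted p = 1.34e-05). Erbb4 had 273 and 171 in ER+ cells against 1941 and 2047 in ER- cells (-3.20 ± 0.39). The ligand genes Nrg1 (84 and 24 in ER+, 414 and 348 in ER-) and Nrg2 (61 and 39 in ER+, 630 and 550 in ER-) were lower, with log2 fold changes of -3.05 ± 0.58 and -3.57 ± 0.52. The ligand gene Btc, at 319 and 401 in ER+ cells against 658 and 693 in ER- cells, was lower too, with an adjusted p of 0.0261 that lay between 0.0633 and 0.159 with any 1 library left out. Lrig1, a negative regulator of the receptors, was lower by 1.10 ± 0.17. The receptor genes Erbb2 and Erbb3 were not called, with Erbb2 at 2970 and 4025 in ER+ cells and 2365 and 2102 in ER- cells, and Erbb3 at 11933 and 12854 in ER+ cells and 9338 and 8646 in ER- cells.

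WNT genes also divided between the cell types. Of 30 tested, 6 were higher and 9 lower in ER+ cells, with a median of -0.33. Besides Wnt4 and Wnt5a, the ligand gene Wnt11 was higher, with 342 and 264 in ER+ cells against 58 and 72 in ER- cells (2.20 ± 0.46). Wnt5b, the close paralog of Wnt5a, went the other way, with 214 and 109 in ER+ cells against 2533 and 2126 in ER- cells (-3.92 ± 0.41, adjusted p = 3.57e-05). The R-spondin receptor genes were lower in ER+ cells. Lgr6 had 1073 and 505 in ER+ cells against 9756 and 10437 in ER- cells (-3.78 ± 0.35), Lgr4 had 788 and 660 in ER+ cells against 2754 and 2891 in ER- cells (-1.97 ± 0.36), and Lgr5, at 172 and 88 in ER+ cells against 759 and 486 in ER- cells, was called with all libraries (-2.29 ± 0.46, adjusted p = 0.00393) but not without ER+ replicate 2 (adjusted p = 0.0635). Lgr5 is also a basal marker, with 4218 and 3401 in basal cells, and the part of basal RNA in its values was not tested. Axin2, a general target of canonical WNT signalling, was low and not called, at 46 and 21 in ER+ cells and 52 and 34 in ER- cells. Rspo1 was under the filter. The counts of higher and lower genes were 4 and 5 without ER+ replicate 2, 5 and 4 without ER- replicate 1 and 3 and 7 without ER- replicate 2.

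Of 16 FGF genes tested, 4 were higher and 5 lower, with a median of -0.01, or 0.13 after quantile normalization. Fgfr2, the receptor that duct growth needs, had 20991 and 19130 scaled reads in ER+ cells against 2798 and 1681 in ER- cells (3.21 ± 0.47, adjusted p = 0.000787). Fgf1, a ligand gene, had 1098 and 1123 in ER+ cells against 435 and 271 in ER- cells (1.69 ± 0.23), and Fgf13, an intracellular member of the family that does not signal through these receptors, had 475 and 924 in ER+ cells against 60 and 39 in ER- cells (3.75 ± 0.51). Feedback genes of receptor signalling differed among themselves. Spry2 had 894 and 771 in ER+ cells against 4824 and 4836 in ER- cells (-2.54 ± 0.16, adjusted p = 6.41e-07), and Dusp6 had 5535 and 5977 in ER+ cells against 14725 and 16120 in ER- cells (-1.42 ± 0.18), both lower in ER+ cells. Spry1, at 420 and 513 in ER+ cells and 582 and 411 in ER- cells, and Spred1, at 3812 and 3497 in ER+ cells and 4015 and 3733 in ER- cells, were not called. The count of lower genes was 2 without ER+ replicate 2 and 3 without ER- replicate 1.

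In the TGF-beta and BMP list 7 of 28 tested genes were higher and 5 lower in ER+ cells, with a median of 0.25. Tgfb3 had 1220 and 978 in ER+ cells against 8691 and 6990 in ER- cells (-2.83 ± 0.24, adjusted p = 6.42e-06), and Tgfb2 had 178 and 117 in ER+ cells against 931 and 942 in ER- cells (-2.69 ± 0.41). Ltbp1, whose product tethers latent TGF-beta in the matrix, had 1213 and 1019 in ER+ cells against 6740 and 7955 in ER- cells (-2.72 ± 0.21). Inhba, which encodes an activin subunit, was higher, with 216 and 257 in ER+ cells against 33 and 20 in ER- cells (3.15 ± 0.62). The signal transducer gene Smad3 was higher by 0.93 ± 0.13, with 3395 and 3463 in ER+ cells against 1908 and 1690 in ER- cells. The higher count was 3 without ER+ replicate 2 and 4 without ER- replicate 2.

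The 5 called genes of the IGF axis, of 14 tested, were all lower in ER+ cells, and the median was -0.68. Igfbp5, a binding protein gene, had 22278 and 13795 scaled reads in ER+ cells against 177058 and 206171 in ER- cells (-3.45 ± 0.27, adjusted p = 6.42e-06). The receptor gene Igf1r had 1950 and 1190 in ER+ cells against 6625 and 6813 in ER- cells (-2.14 ± 0.23), and the adaptor gene Irs2 had 3448 and 2708 in ER+ cells against 12080 and 13468 in ER- cells (-2.06 ± 0.29). Irs1 was lower by 1.29 ± 0.26. The growth factor gene Igf1 itself was not called, at 399 and 378 in ER+ cells and 396 and 420 in ER- cells, and Igf2 followed the replicate number, at 496 and 19 in ER+ cells and 724 and 46 in ER- cells.

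Retinoid genes had 4 members lower and 0 higher of 19 tested, or 1 higher without ER- replicate 1, and a median of -0.17 that became 0.06 after quantile normalization. Beside Aldh1a3, Crabp2, which encodes a carrier of retinoic acid to its receptor, had 73 and 44 in ER+ cells against 728 and 783 in ER- cells (-3.71 ± 0.38, adjusted p = 2.32e-05). Stra6l, a gene related to the retinol transporter gene Stra6, was at 0 in both ER+ libraries and at 52 and 53 in the ER- libraries, at least 15.95-fold lower in ER+ cells when the group is set to 3 reads over both libraries. It passed the filter through the ER- libraries alone, so that it had to differ. The nuclear receptor genes Rara, Rarg and Rxra were not called.

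Of 36 guidance genes tested, 12 were lower and 2 higher in ER+ cells and 22 were not called, with a median of -0.56. Ntn1, the netrin gene whose product holds cap cells to the end bud, had 1243 and 1074 in ER+ cells against 11348 and 12682 in ER- cells (-3.37 ± 0.39). The ephrin receptor genes Epha4 (317 and 117 in ER+, 2271 and 2153 in ER-) and Epha7 (140 and 127 in ER+, 978 and 904 in ER-) were lower, with log2 fold changes of -3.51 ± 0.40 and -2.81 ± 0.23, and the ligand gene Efna5 (494 and 342 in ER+, 2879 and 3037 in ER-) had one of -2.84 ± 0.32. The 2 higher genes form a ligand and receptor pair. Slit2 had 607 and 986 in ER+ cells against 169 and 186 in ER- cells (2.12 ± 0.37), and Robo1 had 2023 and 1821 in ER+ cells against 380 and 225 in ER- cells (2.71 ± 0.29, adjusted p = 3.02e-05). The lower count was 7 without ER+ replicate 2 and 8 without ER- replicate 1.

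For 8 lists limma called 0 genes higher in ER+ cells. These lists share genes, with Mfge8 in the progenitor and milk lists, Cd14 in the progenitor and innate defence lists, and Ltf and Pigr in the milk and innate defence lists. Aldh1a3 is in the progenitor and retinoid lists. Among their 156 tested members, with a shared gene counted in each list, edgeR and DESeq2 each called 1 higher, a gene of the IGF axis. In limma 2 had an unadjusted p under 0.05. For 4 lists limma called 0 genes lower, where edgeR called 0 and DESeq2 called 1 of 54 members.

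**Figure D4:**
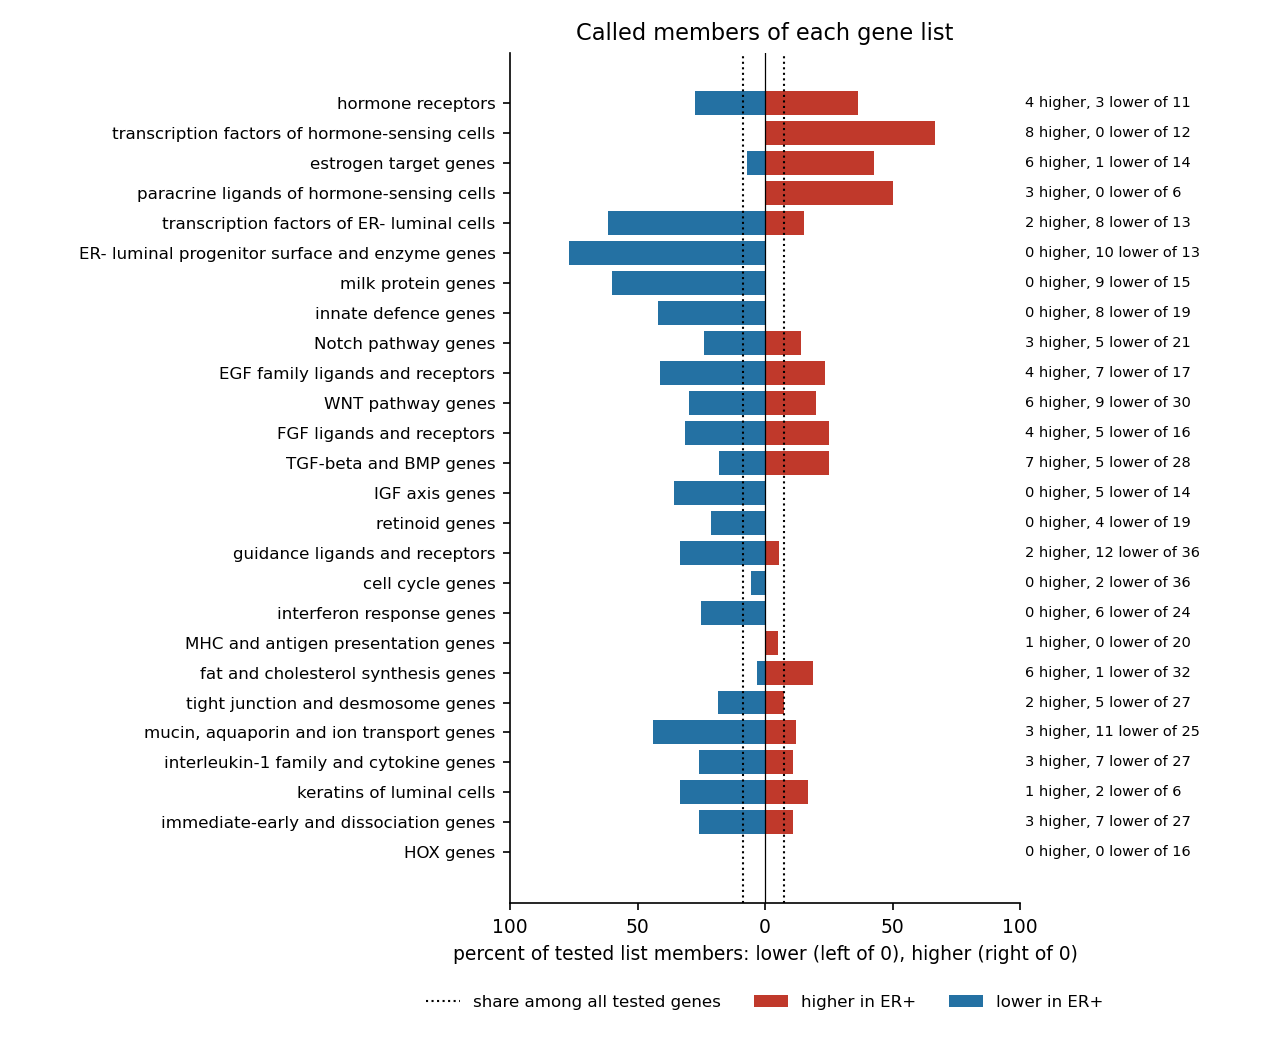
Percent of the tested members of 26 gene lists that were higher (red, right of 0) or lower (blue, left of 0) in ER+ than in ER- cells at an adjusted p under 0.05, with the counts at the right. Dotted lines give the shares among all tested genes, 7.26% higher and 8.63% lower.

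Structural genes of the luminal cell differed in single members. Among 6 tested genes of the luminal keratin list, 1 was higher and 2 were lower. Krt7 was higher, with 9189 and 10857 in ER+ cells against 2703 and 2630 in ER- cells (1.91 ± 0.55), but its adjusted p of 0.0373 lay between 0.0839 and 0.201 with any 1 library left out. Krt80 was lower, with 220 and 223 in ER+ cells against 867 and 711 in ER- cells (-1.82 ± 0.43). Its adjusted p of 0.00957 became 0.063 without ER+ replicate 2 and 0.0724 without ER- replicate 1. Krt23 was lower, with 31 and 13 in ER+ cells against 291 and 179 in ER- cells (-3.44 ± 0.45). It was highest in the basal cells of the same stage, at 1049 and 717, so it is not a luminal marker here. The part of basal RNA in its values was not tested. Krt8 and Krt18 were not called, and Krt19, at 31174 and 34547 in ER+ cells and 15457 and 17627 in ER- cells, was not called either. Of 27 junction genes tested, 2 were higher and 5 lower, with a median of -0.15. The higher count is near the share of 7.26% over all tested genes. Cldn1, a tight junction gene, had 359 and 148 in ER+ cells against 4820 and 3488 in ER- cells (-4.15 ± 0.59, adjusted p = 0.000574), and Cldn23 had 117 and 132 in ER+ cells against 464 and 616 in ER- cells (-2.10 ± 0.39). A pair of desmosome genes lay on opposite sides, with Dsc2 at 2751 and 2905 in ER+ cells against 634 and 462 in ER- cells (2.38 ± 0.21, adjusted p = 1.02e-05) and Pkp1 at 2381 and 2463 in ER+ cells against 7699 and 7894 in ER- cells (-1.69 ± 0.20). The counts of higher and lower junction genes were 1 and 3 without ER+ replicate 2 or ER- replicate 1, and 1 and 4 without ER- replicate 2. In edgeR and in DESeq2 they were 5 and 5.

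Of 25 tested genes of the luminal surface and of ion transport, 11 were lower and 3 higher in ER+ cells and 11 were not called, with a median of -1.23. The mucin genes Muc1 (536 and 557 in ER+, 3941 and 6029 in ER-), Muc4 (50 and 47 in ER+, 603 and 1211 in ER-) and Muc20 (153 and 104 in ER+, 1359 and 1984 in ER-) were lower, with log2 fold changes of -3.15 ± 0.34, -4.11 ± 0.60 and -3.69 ± 0.53. Kcnn4, a calcium-activated potassium channel gene, had 142 and 73 in ER+ cells against 2216 and 1570 in ER- cells (-4.18 ± 0.65), and Slc34a2, a phosphate transporter gene, had 67 and 32 in ER+ cells against 755 and 851 in ER- cells (-4.08 ± 0.73). The epithelial sodium channel genes Scnn1b (324 and 213 in ER+, 1439 and 1267 in ER-) and Scnn1g (88 and 55 in ER+, 453 and 376 in ER-) were lower, with log2 fold changes of -2.36 ± 0.43 and -2.55 ± 0.40. Slc12a2, the sodium, potassium and chloride cotransporter gene, had 161882 and 214333 in ER+ cells against 24163 and 17606 in ER- cells (3.17 ± 0.68, adjusted p = 0.00768). It became 0.0788 without ER+ replicate 2 and 0.0724 without ER- replicate 2. The higher count was 2 without ER+ replicate 1, 1 without ER+ replicate 2, 1 without ER- replicate 1 and 0 without ER- replicate 2.

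Cytokine genes had 3 higher and 7 lower members of 27 tested, with a median of -0.70. Il33, an alarmin of the interleukin-1 family, had 8805 and 12916 scaled reads in ER+ cells against 755 and 1216 in ER- cells (3.47 ± 0.61, adjusted p = 0.00208). Lif and the gene of its receptor lay on opposite sides, since Lifr had 14008 and 10663 in ER+ cells against 4062 and 2981 in ER- cells (1.81 ± 0.26), whereas Lif was lower by 2.85 ± 0.55. Il6ra, the interleukin-6 receptor gene, was lower by 1.45 ± 0.20. The lower count was 4 without ER+ replicate 2 and 4 without ER- replicate 1, and DESeq2 called 5 higher and 10 lower.

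Interferon response genes were lower in ER+ cells where they were called, 6 of 24 tested with 0 higher, and the median was -1.11. Irf7, the factor gene that amplifies the response, had 1030 and 1092 in ER+ cells against 3318 and 5819 in ER- cells (-2.05 ± 0.35), and Ifi44 had 1012 and 900 in ER+ cells against 4170 and 6017 in ER- cells (-2.39 ± 0.47). Values of ER- replicate 2 were higher than those of ER- replicate 1 for both genes. The count was 2 without ER+ replicate 2 and 2 without ER- replicate 2, but 12 in edgeR and 13 in DESeq2, and 16 were lower at an unadjusted p under 0.05 in limma. The 20 MHC and antigen presentation genes had 1 higher and 0 lower, no more than the shares of 7.26% and 8.63% over all tested genes. H2-K1, for example, had 14193 and 17470 in ER+ cells and 12744 and 14485 in ER- cells. The 1 higher gene, the immunoproteasome subunit gene Psmb9, had 513 and 722 in ER+ cells and 236 and 199 in ER- cells. Its adjusted p of 0.0119 became 0.136 without ER+ replicate 2 and 0.098 without ER- replicate 2.

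Fat and cholesterol synthesis genes had 6 higher and 1 lower of 32 tested, with a median of -0.22. Fdft1, the squalene synthase gene, had 1386 and 1369 in ER+ cells against 707 and 471 in ER- cells (1.25 ± 0.23). Without ER+ replicate 2 or without ER- replicate 2 the counts were 2 higher and 0 lower. Without ER+ replicate 1 they were 4 higher and 0 lower, and without ER- replicate 1 they were 6 higher and 0 lower. DESeq2 called 8 higher and 3 lower. Adipocyte markers, which share fat metabolism genes with the adipose tissue around the ducts, moved with the replicate number as given above.

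Cell cycle genes were not told apart. Of 36 tested, 2 were called lower and 0 higher, no more than the shares of 8.63% and 7.26% over all tested genes, and the median was -0.60. Mki67, a gene of cycling cells, had 1798 and 939 in ER+ cells and 4672 and 1641 in ER- cells, a log2 fold change of -1.09 ± 1.07 (adjusted p = 0.579). Replicate 1 held more than replicate 2 in both cell types, and the ranges overlapped, while within each replicate number the ER+ library held less than the ER- library. The 2 calls, the replication genes Pcna and Cdt1, were gone without ER+ replicate 2 and without ER- replicate 1, with adjusted p of 0.197 and 0.218 in the first and 0.15 and 0.225 in the second. Without ER+ replicate 1 or ER- replicate 2, 1 call was left.

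Immediate-early genes, which tissue dissociation can induce, had 3 higher and 7 lower members of 27, with a median of -0.44. Fos did not differ by the test, with 54860 and 74630 in ER+ cells and 59723 and 75624 in ER- cells. The nuclear receptor genes Nr4a2 (593 and 210 in ER+, 2951 and 4617 in ER-) and Nr4a3 (633 and 360 in ER+, 3007 and 4473 in ER-) were lower in ER+ cells, with log2 fold changes of -3.38 ± 0.51 and -2.94 ± 0.45. Egr3 (-2.83 ± 0.31) and Fosl1 (-2.99 ± 0.36) were lower too. The higher count was 0 without ER+ replicate 2, 0 without ER- replicate 1 and 1 without ER- replicate 2. Of 16 HOX genes tested, 0 were called by limma, by edgeR or by DESeq2, and 0 had an unadjusted p under 0.05 in limma. Without ER+ replicate 1, 2 HOX genes were lower. Many were under the filter, Hoxb8, for example, at 8 and 0 in ER+ cells and 29 and 0 in ER- cells.

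By size of change, the leading genes included some outside these lists. Upk3a, a uroplakin gene best known from the bladder lining (chromosome 15, 85017141 to 85022547), had 1641 and 1524 scaled reads in ER+ cells against 78 and 72 in ER- cells (4.38 ± 0.54, adjusted p = 0.000104). Itih2, a hyaluronan-binding inhibitor chain gene, had 2690 and 2840 in ER+ cells against 136 and 183 in ER- cells (4.12 ± 0.70). Ctse, an aspartic protease gene, had 324 and 298 in ER+ cells against 23 and 16 in ER- cells (3.95 ± 0.63). Cemip, a hyaluronan-degrading protein gene, had 517 and 629 in ER+ cells against 21 and 64 in ER- cells (3.92 ± 0.73). Crym, which encodes a thyroid hormone binding protein, had 500 and 489 in ER+ cells against 46 and 23 in ER- cells (3.88 ± 0.51). On the other side, the collagen gene Col9a1 had 88 and 13 in ER+ cells against 1355 and 751 in ER- cells (-4.84 ± 0.82, adjusted p = 0.00203).

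The difference between the luminal cell types was then set beside that in adults and in mid pregnancy. Libraries of those stages stood apart in ways that touch this comparison. The 4 adult luminal libraries held 2406221 to 3165238 reads, with mitochondrial transcripts at 4.73% to 7.07%, against 1.88% to 3.21% in the puberty luminal libraries. ER- replicate 2 of pregnancy held 0.615% mitochondrial transcripts against 3.26% in replicate 1, and its 10 most abundant genes took 2.09% of the total against 9.48%. It had 21279 scaled reads of Csn2, while pregnancy ER- replicate 1 had 253329 and the pregnancy ER+ libraries had 113910 and 249723. In pregnancy the ER+ libraries also held ER- genes near ER- levels, for example Elf5 at 4329 and 11434 in ER+ cells and 12758 and 11272 in ER- cells.

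Most genes that differed at puberty lay in the same direction in adults. Of the genes higher in ER+ cells at puberty, 96.7% had the same sign in adults and 56.2% were called there too, and of the lower genes 98.3% and 75.1%. Over all tested genes 76.7% shared the sign. In pregnancy 71.8% of the higher genes had the same sign, against 52.8% of all tested genes above 0 at puberty. Of the lower genes 87.8% had the same sign, against 69.5% of all tested genes below 0 at puberty. Over all genes the share was 61.9%, and 13.3% of the higher and 1.64% of the lower genes were called in pregnancy. The share of all tested genes called within adults or within pregnancy is not given here. The called shares at those stages therefore have no background and do not show how far the calls overlap beyond it. Esr1 had 11208 and 12091 in adult ER+ cells against 2373 and 3246 in adult ER- cells, a log2 fold change of 2.07. It had 5666 and 2096 in pregnancy ER+ cells against 683 and 751 in pregnancy ER- cells, a log2 fold change of 2.27. The differences of these from the 3.33 at puberty were not called (adjusted p = 0.951 and 0.622). Aldh1a3 had 568 and 511 in pregnancy ER+ cells against 821 and 605 in pregnancy ER- cells, and its difference from puberty was -3.45 (adjusted p = 0.00703).

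**Figure D5:**
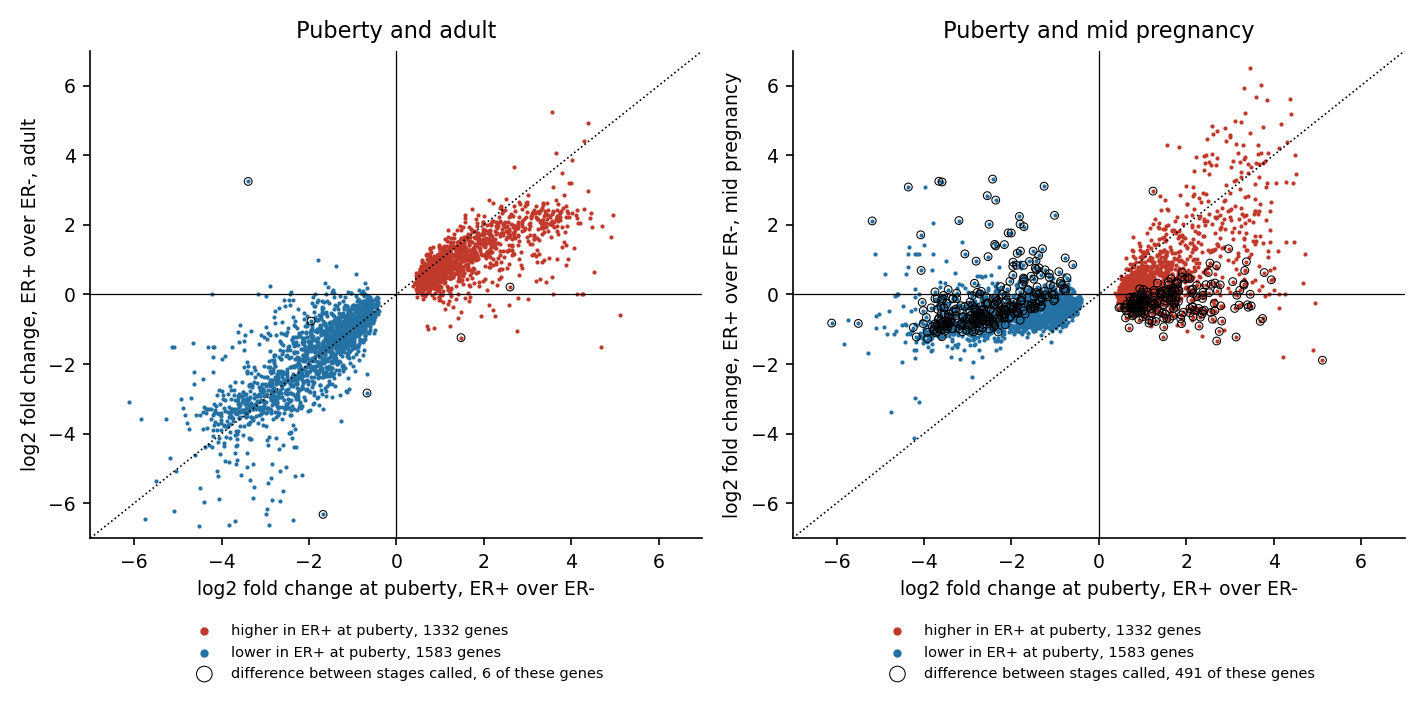
Log2 fold change (ER+ over ER-) at puberty (x axis) against that in adults (left) and in mid pregnancy (right) for the 2915 genes called at puberty, red where higher and blue where lower in ER+ cells at puberty. Black rings mark called genes whose difference itself differed between the stages, 6 for adults and 491 for pregnancy, and the dotted line marks equal changes.

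A test of the difference between stages called 13 genes for puberty against adults (0.0709% of the genes tested). The signed log2 fold change, ER+ over ER-, was higher at puberty for 11 (0.06%) and lower there for 2 (0.0109%). This sign does not give the size of the gap between the cell types. Of the 13, 8 were at 0 in both adult ER+ libraries and 1 in both adult ER- libraries, so their fitted values depend on the pseudocount. The other 4 were Pak3, Epb41l2, Amotl1 and Syt9. Pak3, a p21-activated kinase gene, had 648 and 575 in ER+ cells against 105 and 95 in ER- cells at puberty, and 497 and 726 in ER+ cells against 580 and 464 in ER- cells in adults. The number of calls was 62 without adult ER+ replicate 1, 103 without adult ER+ replicate 2 and 7 without puberty ER- replicate 2. It was 0 without the pregnancy libraries, 1 with a pseudocount of 20, 2 after quantile normalization and 2 in edgeR, and an unadjusted p under 0.05 was reached by 1140 genes.

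For puberty against pregnancy the test called 550 genes (3% of those tested). The signed log2 fold change, ER+ over ER-, was higher at puberty for 210 (1.14%) and lower there for 340 (1.85%). Of the 550, 202 were higher in ER+ cells at puberty, and for 201 of these the log2 fold change in pregnancy was smaller in size or of opposite sign. It was of opposite sign for 142. Likewise 289 were lower in ER+ cells at puberty, all with a change of smaller size or opposite sign in pregnancy, and for 79 the sign was opposite. Choosing genes by a call at puberty and a call between stages favours this, so these counts are not a separate result. Of the 59 genes not called at puberty, 43 had the opposite sign in pregnancy. Slco2a1, a prostaglandin transporter gene, had 22520 and 28014 in ER+ cells against 2998 and 1835 in ER- cells at puberty, and 923 and 646 in ER+ cells against 1033 and 962 in ER- cells in pregnancy. Lcn2 had 2526 and 5619 in pregnancy ER+ cells against 6363 and 5644 in pregnancy ER- cells, a difference of -2.76 (adjusted p = 0.00462) from puberty. The count was 195 without pregnancy ER- replicate 2, 361 without pregnancy ER+ replicate 2, 165 without puberty ER+ replicate 2, 324 without puberty ER- replicate 1 and 181 without puberty ER- replicate 2.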

How the data were processed

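Per the labels' protocols, RNA of sorted cells was extracted with the RNeasy micro kit and libraries were made with Ovation Solo reagents. Per the submitters' processing notes, STAR, Picard and HTSeq were used, with the builds GRCm38 and mm10. Their versions, the annotation and the use of strand were not given in the sources used here, so reads of antisense or overlapping genes, and of close paralogs, may be shared. The authors deposited 1 table of normalized signal values for 18 libraries. From its values, each column holds gene counts scaled to nearly the same total in every library and rounded up, with 1 read worth 1.75 to 8.25. This was inferred for 15 libraries and met a strict check in 3. Reads were recovered from these steps, and 99.8% to 99.9% of the values of a library came out exactly as deposited when the recovered reads were scaled again. Floors of 3 reads cover counting error only.

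Of 46868 rows, 790 shared 179 repeated IDs, and 46233 genes were kept. Genes with a value of 10 or more in at least 2 of the 4 puberty luminal libraries were tested. The log2 of value + 1 was fitted with limma 3.58.1 (R 4.3.3), with trend and robust options, for 9 groups over 18 libraries (9 residual degrees of freedom). The ER+ minus ER- contrast and its differences between stages were adjusted by Benjamini-Hochberg over 18345 genes, with a threshold of 0.05. The steps were tested on simulated data. Alternatives were other pseudocounts, filters, scalings, sets of libraries and weights, a replicate block, edgeR 4.0.16 and DESeq2 1.42.0 on recovered reads, and leaving out each library. Tables came from pandas 2.3.3 and numpy 2.4.6 under Python 3.11.15, and figures from matplotlib 3.10.9. Gene positions are those of GENCODE (GRCm38).

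The members, gene lists and tests were chosen with earlier results of these data known. Genes named are a panel, the 12 largest rises and 12 largest falls among called genes above the median level, up to 4 called members of each list and the 6 largest in each direction for each stage difference, of which a part is printed. Other genes named were chosen after their values were seen. Results for some members of the lists are not reported here.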

Additional observations from a re-analysis of the deposited data

Results flagged for a closer look

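The ER+ to ER- difference was itself tested between stages, as puberty minus the other stage on the log2 scale with limma, and a difference that passed this test put each result here. The ER+ to ER- difference changed between puberty and adults for 13 genes and between puberty and pregnancy for 550 genes. All values rest on 2 libraries a group.

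Against adults, Pak3, a kinase gene, differed by 2.39 ± 0.34 (SE). It had 497 and 726 in adult ER+ cells against 580 and 464 in adult ER- cells, so that its adult groups overlapped. Its adjusted p was 0.0121, and it was 0.055 without puberty ER+ replicate 1, 0.0765 without puberty ER- replicate 2 and 0.0592 without adult ER- replicate 1. Epb41l2, which encodes a protein of the membrane skeleton, differed by 2.16 ± 0.23 (SE). It had 854 and 825 in ER+ cells against 1521 and 1177 in ER- cells at puberty, and 233 and 215 in ER+ cells against 1711 and 1498 in ER- cells in adults. Its adjusted p was 0.00179, at most 0.0166 with any 1 of the 8 libraries left out, and 0.0555 without the pregnancy libraries. Amotl1, an angiomotin family gene, differed by -1.19 ± 0.20 (SE), with an adjusted p of 0.0452 that lay between 0.0642 and 0.164 when any 1 of 6 libraries was left out.

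Against pregnancy, the receptor gene Erbb4 differed by -5.32. It had 273 and 171 in ER+ cells against 1941 and 2047 in ER- cells at puberty, and 7643 and 3920 in ER+ cells against 1128 and 1401 in ER- cells in pregnancy, so its direction was opposite at these stages. The sodium channel subunit genes Scnn1g and Scnn1b differed by -5.39 and -5.07. Scnn1g had 88 and 55 in ER+ cells against 453 and 376 in ER- cells at puberty, and 1329 and 1173 in ER+ cells against 149 and 203 in ER- cells in pregnancy. Papln, which encodes a matrix protein, differed by -4.52. It had 3042 and 2744 in ER+ cells against 17258 and 15673 in ER- cells at puberty, and 1351 and 1076 in ER+ cells against 327 and 271 in ER- cells in pregnancy. Fgf13 differed by 4.44 and Slco2a1 by 3.79. Aldh1a3 differed by -3.45 and Lcn2 by -2.76. The adjusted p of these 8 differences stayed under 0.05 with any 1 of the 8 libraries of both stages left out, and its highest value was 0.0453, for Aldh1a3.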

How the results depend on the processing

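The number of genes that differed at puberty was 2915 and lay between 2623 and 4111 under the 16 alternatives that kept all 4 libraries, with 3989 in edgeR and 4111 in DESeq2, and between 1317 and 2855 with 1 of the 4 left out. Of the 129 called genes named in the text, 0 changed direction under these alternatives, but Itgax and Slc6a14 were not tested with a filter of 50. With the 4 puberty luminal libraries fitted alone, 2685 genes were called, 2215 of them among the 2915, and 8 of the 129 lost their call. Over all tested genes the median log2 fold change was 0.04 after quantile normalization, against -0.07 without it. The count of differences from adults, 13, was 1 with a pseudocount of 20, 2 after quantile normalization, 0 without the pregnancy libraries, 2 in edgeR and 7 to 103 with 1 library left out. That from pregnancy, 550, was 165 to 753 with 1 library left out. The causes were not tested. With the replicate number as a block, the counts were 3616 at puberty, 38 for adults and 1009 for pregnancy, and 2874 of the 2915 genes were called in both fits. Differences between replicates 1 and 2 correlated across genes at 0.39 between the ER+ and ER- libraries at puberty, at 0.13 in adults and at 0.12 in pregnancy, and at 0.02 to 0.15 between luminal and basal libraries of a stage. With 2 numbers a stage, and values under 0.1 among those with basal cells, this does not show that the numbers pair the samples, and no label says so. Some genes that were not called changed sign with 1 library left out, and their log2 fold changes then ran from -0.0735 to 0.74 for Anxa1, -0.97 to 0.13 for Axin2, -0.29 to 0.23 for Ccnd1, -4.21 to 0.0757 for Csn2, -2.85 to 0.26 for Dll4, -0.29 to 0.15 for Fos, -3.21 to 1.43 for Igf2, -1.93 to 0.46 for Krt5, -0.32 to 0.07 for Mbp, -1.57 to 0.80 for Notch4, -2.98 to 0.0865 for Ptprc, -0.005 to 0.24 for Rarg, -0.0657 to 0.26 for Rxra, -0.33 to 0.18 for Spry1 and -1.71 to 1.79 for Stra6. Of these, Krt5, Dll4 and Ptprc were called lower in ER+ cells without ER+ replicate 1, with adjusted p of 0.0454, 0.0211 and 0.00422. Stra6 was also -0.18 and -0.21 with pseudocounts of 5 and 20, -0.85 in edgeR and -0.91 in DESeq2. With 2 libraries a group and 7674810 to 11292119 reads in each, genes near the filter rest on few reads.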

Other observations

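Noncoding transcripts were divided less evenly than coding ones. In 5 noncoding classes pooled (antisense, lincRNA, sense intronic, processed transcript and transcripts still to be experimentally checked), 21 of 2410 tested genes were higher in ER+ cells (0.871%) and 172 were lower (7.14%), with a median log2 fold change of -0.51. Of 14255 protein coding genes, 1301 were higher (9.13%) and 1378 lower (9.67%), with a median of -0.01. Among 131 sense intronic genes 0 were higher and 17 lower in limma, and 0 and 22 in edgeR. The noncoding genes had a median level of 30.8 scaled reads, against 428 for protein coding genes. Over all tested genes, 539 passed the filter through the ER- libraries alone and 309 through the ER+ libraries alone. Such genes had to differ, and the counts here do not set them apart. ER+ replicate 2 had the fewest reads of the puberty luminal libraries, 7674810. Its part in the imbalance was not tested, and these counts were not taken with 1 library left out. Among the 953 noncoding genes that passed a filter of 50, 19 were higher and 134 lower, edgeR called 74 higher and 289 lower of all 2410, and after quantile normalization the counts were 116 and 232 with a median of -0.21. Strand use in counting is not given in the sources used here, so reads of these genes and of the genes they overlap cannot be told apart.

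Slc6a14, an amino acid transporter gene chosen after its values were seen, had 0 and 0 scaled reads in ER+ cells against 68 and 46 in ER- cells at puberty, at least 17.32-fold lower in ER+ cells when that group is set to 3 reads over both libraries. It passed the filter through the ER- libraries alone.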
